A study of Mus musculus with 4 samples.

Results

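The chemokine receptor genes Ccr2, Ccr4, Ccr8, Ccr9, Cxcr3, Cxcr4, Cxcr5 and Cxcr6 were taken as a named list of 8 genes out of 19505 with a symbol on the array, and each was read from the brightest feature that carried its symbol. Each symbol had 1 feature, so no choice between features arose. Signals came from 4 Clariom S Mouse arrays, 2 of cultures that received 25 µM spermidine, a polyamine, and 2 of cultures left without it. All cells were CD8+ T cells that came out of spleen and lymph node of C57/BL6 mice, and in both groups they grew for 3 days with beads that bind CD3 and CD28, the receptor complex and the co-stimulatory receptor of T cells, in medium with IL-2. Age, sex and pooling of the mice are not given in the labels. The comparison asks how the receptors differ in activated CD8+ T cells that were cultured with spermidine.

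Chemokine receptors are G-protein-coupled receptors that let a T cell sense gradients of small secreted chemokines. Ligand binding activates inhibitory G proteins, which engage the cytoskeleton and integrins, and G-protein regulators, receptor kinases and arrestins end the signal. Naive CD8+ T cells circulate through lymphoid organs, and after activation they change their set of receptors, which directs them to inflamed tissue, skin, gut or back into follicles and bone marrow.

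None of the 8 receptors was called changed. At an adjusted p of 0.05 (limma, Benjamini-Hochberg over 22206 features) 0 of 8 passed, as did 0% of all features, and at an unadjusted p under 0.05 it was 0 of 8 against 7.02% of all features. Of the 8, 6 lay above background on every array: Cxcr3, Cxcr4, Cxcr6, Ccr2, Ccr4 and Ccr9. Background is here the 95th percentile of the antigenomic features, whose probes match no genomic sequence, at 6.35 on the log2 scale as a mean over arrays. The groups did not overlap for 3 receptors, Ccr4 on the lower side and Cxcr6 and Ccr9 on the higher side. Of all features, 36.7% had groups that did not overlap, 18.3% higher and 18.4% lower with spermidine, so 3 of 8 is about the share of the whole array. Among the features above background the share was 41.8%. The median size of the difference was 0.20 for the 8 receptors and also 0.20 for all features, with a median difference of -0.099 for the receptors and -0.0067 for all features.

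**Figure D1:**
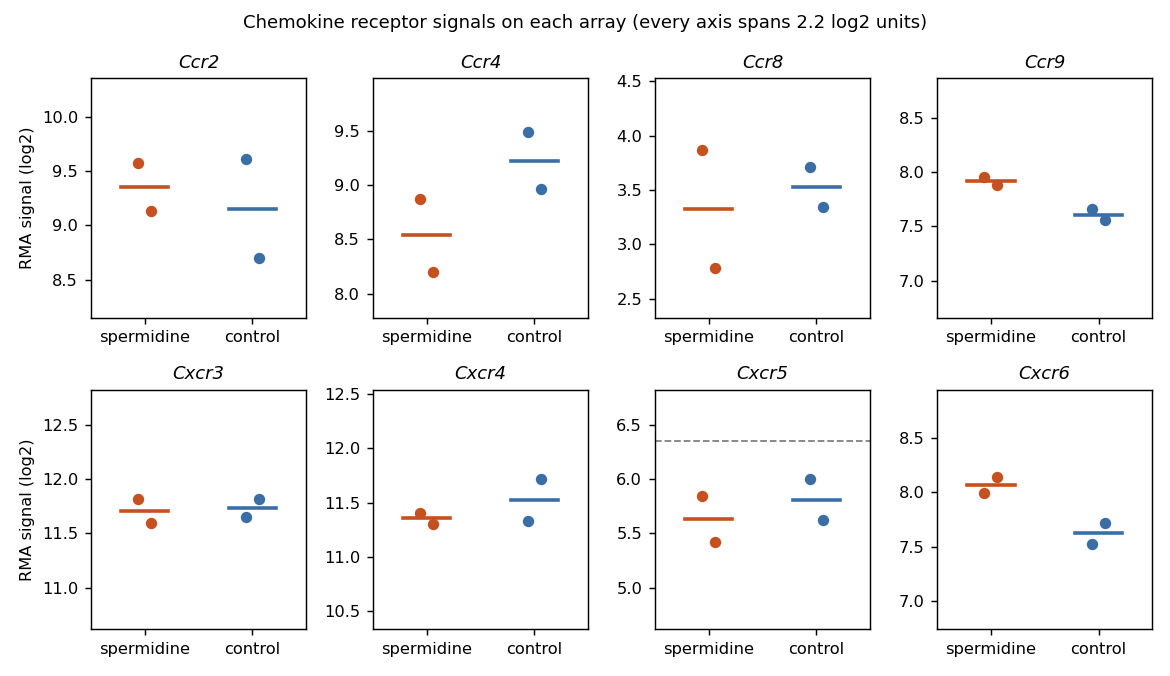
Log2 signal of each receptor on each array, spermidine on the left and control on the right of every panel, with points for the 2 arrays of a group and a bar for their mean. Ccr4 lay lower and Cxcr6 and Ccr9 lay higher in the spermidine arrays without overlap, and the dashed line in the Cxcr5 panel is the background level of 6.35.

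The values rest on few arrays. Correlations across features between any 2 arrays ran from 0.989 to 0.994, and array medians from 5.13 to 5.25. The 6 measured T cell markers (the CD3 chains Cd3d, Cd3e, Cd3g and Cd247, and the CD8 chains Cd8a and Cd8b1) were above background on every array. Their mean was 15.03 and 15.08 in the spermidine arrays, against 15.22 and 15.25 in the control arrays. The labels call the arrays biological replicates without naming animals. The p-values therefore reflect only how far these samples differ among themselves, over all features as well as in the feature tested. That spread may be technical. An exact permutation test of 2 against 2 arrays could not go below p = 0.333. In bulk RNA, fewer cells that express a receptor and less RNA per cell cannot be told apart.

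Cxcr3 and Cxcr6 are receptors of effector CD8+ T cells. Cxcr3, which binds the interferon-induced chemokines Cxcl9 and Cxcl10 and guides T cells into inflamed tissue, had log2 signals of 11.81 and 11.59 in the spermidine arrays, against 11.65 and 11.82 in the control arrays. The ranges overlapped almost fully. The difference was -0.031 ± 0.23 (SE), with a 95% interval from -0.56 to 0.50 and an adjusted p = 0.991 (limma). The interval leaves room for a change of either sign. After a further quantile normalization the difference was 0.032 and after cyclic loess 0.021.

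The ligands of Cxcr3 showed no called change either. Cxcl10 had signals of 6.19 and 7.68 in the spermidine arrays and 6.48 and 6.75 in the control arrays, so its groups overlapped and the higher value came from 1 spermidine array. Its difference of 0.32 was -0.42 without spermidine replicate 2. Cxcl9 and the further ligand Cxcl11 lay below background on all arrays. Tbx21, the transcription factor known to drive Cxcr3 in T cells, had a difference of -0.17 (0.15 when control replicate 1 was left out, 0.14 when spermidine replicate 2 was).

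Cxcr6, the receptor for Cxcl16 and a mark of effector and tissue-resident CD8+ T cells, had signals of 7.99 and 8.14 in the spermidine arrays, against 7.53 and 7.71 in the control arrays. The lowest spermidine array exceeded the highest control array. The means were 8.06 ± 0.10 with spermidine and 7.62 ± 0.13 in control (SD, n = 2 each), a difference of 0.44 ± 0.23 (SE) or 1.36-fold. The test gave an adjusted p = 0.741 (limma), and the 95% interval ran from -0.077 to 0.96. The difference was 2.36 times as large as the wider of the gaps within a group, each gap resting on 2 arrays. Of all features, 7.79% had a difference at least as high. In either direction, 11.4% had a limma statistic at least as large in size. Leaving out any 1 array gave 0.35 to 0.54. Its ligand Cxcl16 lay below background on every array, at 5.17 and 5.42 with spermidine and 5.02 and 5.40 in control.

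Ccr9, the receptor for Ccl25 that guides lymphocytes to the small intestine, had signals of 7.95 and 7.88 in the spermidine arrays, against 7.66 and 7.55 in the control arrays. The arrays of each group lay close together and the groups did not overlap. The means were 7.91 ± 0.053 with spermidine and 7.61 ± 0.073 in control (SD, n = 2 each), a difference of 0.31 ± 0.22 (SE) or 1.24-fold, with an adjusted p = 0.815 (limma) and a 95% interval from -0.20 to 0.82. The ratio of the difference to the wider within-group gap was 2.97, each gap resting on 2 arrays. Of all features, 15.1% had a difference at least as high. In either direction, 24.3% had a limma statistic at least as large in size. The fitted error is larger than the gaps between the Ccr9 arrays because limma draws each feature's variance toward that of all features. Leaving out any 1 array gave 0.26 to 0.36. Ccl25 was the only ligand of the 8 receptors above background on every array, with signals of 7.90 and 7.87 with spermidine and 7.67 and 7.69 in control. Its difference of 0.21 was not called.

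Ccr9 and Cxcr6 lie near each other on mouse chromosome 9. Among protein-coding genes ordered by lower coordinate in RefSeq's GRCm38.p6 annotation, only Fyco1 comes between Ccr9 and Cxcr6. Whether the spans of these genes overlap was not looked at. The stretch from the second gene before Ccr9 to the second after Ccr2 was looked at after these values were seen. It holds 12 protein-coding genes, and 10 were measured. Fyco1, an adaptor for the transport of autophagosomes, had signals of 7.33 and 7.15 in the spermidine arrays, against 6.53 and 6.45 in the control arrays, a difference of 0.75 ± 0.22 (SE, adjusted p = 0.637, limma). Lztfl1, on the other side of Ccr9, had 9.20 and 9.52 with spermidine and 9.12 and 8.76 in control, a difference of 0.42 (0.24 when control replicate 2 was left out, 0.26 when spermidine replicate 2 was). Of the 10 measured genes, 9 were higher, 0 passed the test, and 6 had both spermidine arrays above both control arrays, against 18.3% of all features. These 6 were Slc6a20a, Lztfl1, Ccr9, Fyco1, Cxcr6 and Ccr3, and the stretch was chosen because Ccr9 and Cxcr6 are among them. For 5 of the 10, Slc6a20a, Xcr1, Ccr1, Ccr1l1 and Ccr3, all arrays stayed below background. Ccr2, at the far end, overlapped between groups.

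**Figure D2:**
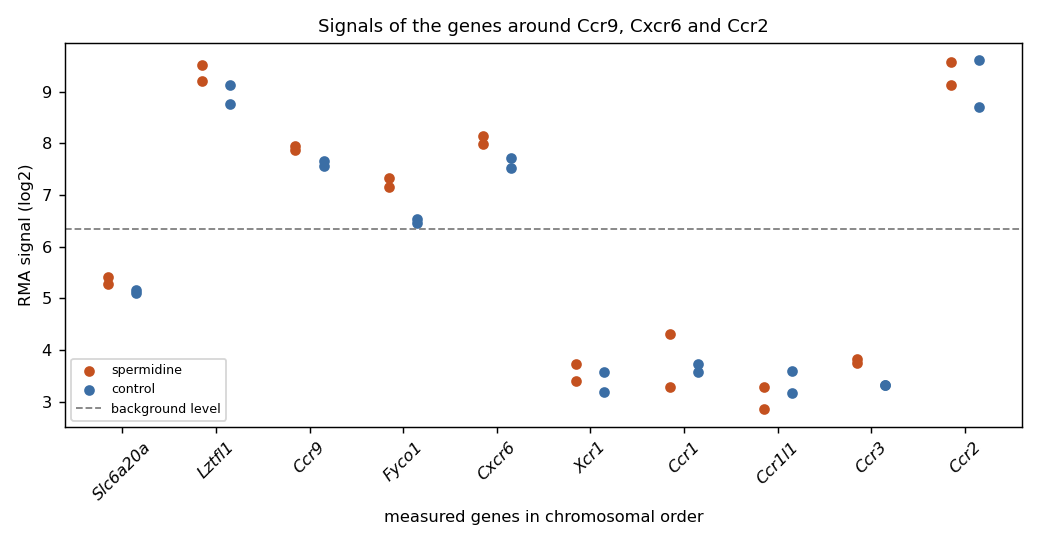
Log2 signal of the 10 measured genes around Ccr9, Cxcr6 and Ccr2 in their chromosomal order, with 2 points per group, spermidine left of control, and the background level dashed. Slc6a20a, Lztfl1, Ccr9, Fyco1, Cxcr6 and Ccr3 had both spermidine arrays above both control arrays, as had 18.3% of all features. The stretch was chosen because Ccr9 and Cxcr6 are among these genes. Of the 10, 5 genes, Slc6a20a and Ccr3 among them, lay below the dashed line at 6.35.

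Ccr2, the receptor for Ccl2 and related chemokines that recruits monocytes and effector T cells, had signals of 9.57 and 9.13 in the spermidine arrays, against 9.61 and 8.70 in the control arrays. The control arrays enclosed both spermidine arrays. The difference of 0.20 ± 0.33 (SE, adjusted p = 0.934, limma) was 0.219 times the gap of 0.91 between the control arrays. Its direction depended on single arrays: 0.66 without control replicate 1, 0.42 without spermidine replicate 2, -0.022 without spermidine replicate 1 and -0.26 without control replicate 2. Since monocytes also express Ccr2, their markers were read beside it. Of 7 measured monocyte and macrophage markers, Csf1r, Cd14, Lyz2, Adgre1, Itgam and Fcgr1 lay below background on every array. Only Ly6c2, which activated CD8+ T cells also express, was above it, at 16.25 and 15.60 with spermidine and 17.14 and 16.65 in control. The ligands of Ccr2 (Ccl2, Ccl7, Ccl8 and Ccl12) lay below background on every array.

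Ccr4 and Ccr8 are receptors best known from skin-homing, type 2 and regulatory T cells. Ccr4, which binds Ccl17 and Ccl22, had signals of 8.87 and 8.20 in the spermidine arrays, against 9.49 and 8.96 in the control arrays. Both spermidine arrays lay below both control arrays, though the nearest pair differed little. The means were 8.54 ± 0.48 with spermidine and 9.22 ± 0.37 in control (SD, n = 2 each), a difference of -0.68 ± 0.31 (SE) or 1.61-fold lower. This was the largest difference of the 8 receptors, and 2.61% of all features had a value as low or lower. In either direction, 7.61% of all features had a limma statistic at least as large in size. The difference was not called, with an adjusted p = 0.717 (limma), an unadjusted p = 0.0554 and a 95% interval from -1.39 to 0.020. Set against the wider gap within a group, it was 1.02 times as large. Since the groups did not overlap, leaving out 1 array could not change its sign. The size was -0.35 without spermidine replicate 2, -0.42 without control replicate 1 and -0.95 without control replicate 2. Leaving out spermidine replicate 1 gave -1.02.

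The promoter of Ccr4 is shown with those of Cxcr6 and Ccr9, since these 3 receptors had groups that did not overlap. The sequences are the 250 bases before the transcript start in RefSeq's GRCm38.p6 promoter table, which held 7 of the 8 receptors, and read 5′ to 3′ on the strand of the gene. Capitals mark matches, on either strand, to 6 short motifs of transcription factors. The letters searched for AP-1 were TGANTCA. For the RUNX factors they were TGTGGT. The motif of the T-box factors was taken as GGTGTG. That of the GATA factors was taken as AGATAA. For NFAT the letters searched were TGGAAA. The TATA box was searched as TATAAA. Ccr4 lies on the minus strand (chr9:114496545-114496794), Cxcr6 and Ccr9 on the plus strand (chr9:123806227-123806476 and chr9:123766961-123767210).
Ccr4: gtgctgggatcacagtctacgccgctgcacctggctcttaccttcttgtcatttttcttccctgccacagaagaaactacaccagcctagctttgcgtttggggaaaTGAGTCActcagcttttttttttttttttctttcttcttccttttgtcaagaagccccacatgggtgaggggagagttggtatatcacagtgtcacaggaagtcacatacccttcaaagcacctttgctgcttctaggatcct
Cxcr6: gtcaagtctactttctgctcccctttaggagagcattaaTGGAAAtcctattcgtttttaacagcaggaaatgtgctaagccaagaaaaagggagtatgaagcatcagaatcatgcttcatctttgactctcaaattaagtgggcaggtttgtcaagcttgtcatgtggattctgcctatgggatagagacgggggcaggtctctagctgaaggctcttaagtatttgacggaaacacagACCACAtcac
Ccr9: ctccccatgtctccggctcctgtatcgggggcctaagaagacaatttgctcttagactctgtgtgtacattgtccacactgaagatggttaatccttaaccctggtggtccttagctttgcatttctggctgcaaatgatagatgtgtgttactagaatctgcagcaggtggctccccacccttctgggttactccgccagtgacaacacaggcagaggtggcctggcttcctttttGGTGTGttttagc
The Ccr4 window held 1 AP-1 match, 143 to 137 bases before the start. AP-1 letters were found in 6.75% of all 32851 promoter windows of this length. The Cxcr6 window held an NFAT match, 211 to 206 bases before the start, and a RUNX match, 10 to 5 bases before it, motifs found in 18.6% of all windows for NFAT and 14.0% for RUNX. The Ccr9 window held a T-box match, 13 to 8 bases before the start, a motif of 16.3% of all windows. None of the 6 motifs, in the letters searched, was shared between the 3 windows. NFAT letters were also in the window of Ccr2 and RUNX letters in that of Cxcr3, receptors whose groups overlapped. AP-1 and T-box letters were in no other receptor window. GATA letters were in 9.99% and the TATA box in 12.4% of all windows, and neither in these 3. A match of letters is not a measured binding site.

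The ligands of Ccr4, Ccl22 and Ccl17, were higher in both spermidine arrays, at signals mostly below background, and neither was called. Ccl22 had signals of 6.13 and 7.43 in the spermidine arrays, against 5.17 and 5.37 in the control arrays, a difference of 1.51 ± 0.40 (SE, adjusted p = 0.637, limma). Both spermidine arrays were higher, but only 1 of them lay above background, and without spermidine replicate 2 the difference was 0.86. Ccl17 had 5.45 and 4.88 with spermidine and 4.49 and 4.82 in control, all below background. Because CD4 T cells express Ccr4, their markers were read as well. Cd4 had 6.59 and 7.24 with spermidine and 7.11 and 6.84 in control, and Zbtb7b, the factor that sets the CD4 lineage, had 7.32 and 7.41 with spermidine and 6.32 and 6.88 in control. Cd40lg lay below background. The differences were -0.062 for Cd4, 0.76 for Zbtb7b and -0.15 for Cd40lg, and the part of other T cells in the Ccr4 signal was not tested.

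Ccr8, the receptor for Ccl1, had signals of 3.87 and 2.78 in the spermidine arrays and 3.71 and 3.34 in the control arrays. All 4 lay below background and the groups overlapped, with a difference of -0.20 ± 0.36 (SE) that was 0.34 without spermidine replicate 2. Ccl1 was below background too.

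Cxcr4 and Cxcr5 are receptors of lymphoid positioning. Cxcr4, which binds Cxcl12 and holds cells in bone marrow and lymphoid tissue, had signals of 11.40 and 11.31 in the spermidine arrays, against 11.33 and 11.71 in the control arrays. The groups overlapped, with 1 control array apart from the other 3 arrays. The difference was -0.17 ± 0.24 (SE), with an adjusted p = 0.921 (limma) and a 95% interval from -0.72 to 0.38. Without control replicate 2 it was 0.025. Cxcl12 lay below background on every array.

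Cxcr5, the follicle-homing receptor for Cxcl13 found on B cells and follicular T cells, had signals of 5.84 and 5.42 in the spermidine arrays and 5.99 and 5.62 in the control arrays. All lay below background and the groups overlapped, with a difference of -0.18 ± 0.26 (SE). It was 0.031 without spermidine replicate 2. Cxcl13 and Bcl6, the factor of follicular T cells, were below background as well. Of the 7 measured B cell markers, 6 were higher and 1 was lower with spermidine, and their mean was 5.88 and 5.52 in the spermidine arrays, against 5.36 and 5.23 in the control arrays. Among them Cd79a, a chain of the B cell receptor, had 7.40 and 7.15 with spermidine and 6.44 and 6.50 in control. The median difference of the list was 0.35, and 0 of 7 passed the test; Cxcr5 itself stood at -0.18.

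**Figure D3:**
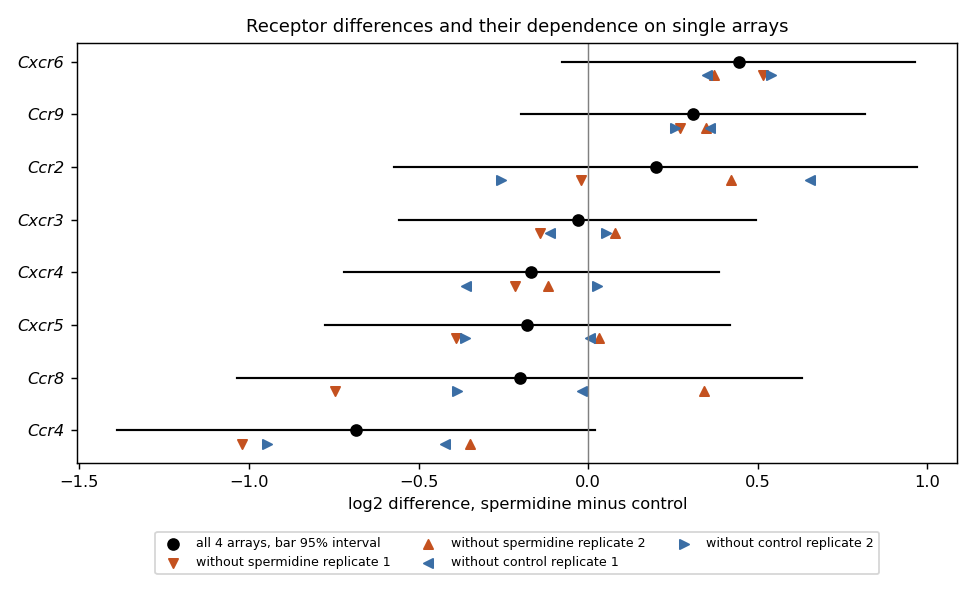
Log2 difference of each receptor, spermidine minus control, with all 4 arrays (black point, bar for the 95% interval) and with each array left out (triangles below it). All 8 intervals include 0. Only Ccr4, Cxcr6 and Ccr9 kept their sign without any 1 array, which must hold wherever the groups do not overlap.

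**Figure D4:**
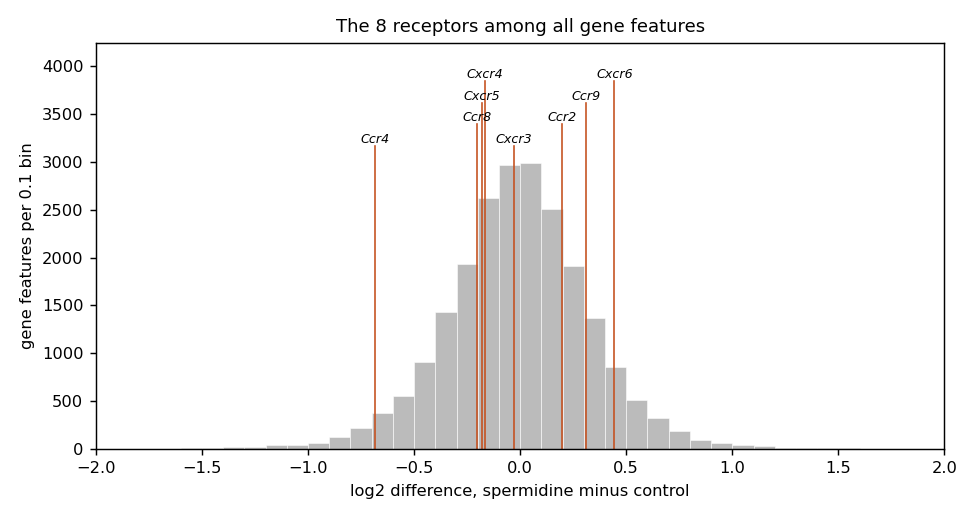
Number of gene features per 0.1 of log2 difference, spermidine minus control, over 22206 features, with lines at the 8 receptors. Ccr4 at -0.68 lay toward the lower tail, where 2.61% of features had a value as low, and the other receptors lay within the body of the distribution. In either direction, 7.61% of features had a limma statistic at least as large in size as that of Ccr4.

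The pattern of each receptor over the 4 arrays was set against 8509 other features that had 1 symbol and a group mean above background, as the distance between their centred log2 values. The nearest to Ccr4 was Ctdsp1 (distance 0.015), to Cxcr6 Phlpp1 (0.044), to Ccr9 Cep85 (0.030) and to Ccr2 Pcf11 (0.058). For Cxcr3 it was Dhodh (0.024) and for Cxcr4 Phf21a (0.029). Cxcr5 and Ccr8, both below background, lay nearest to Lamtor3 (0.021) and Pola1 (0.10). Over 4 arrays likeness singles out little: 159 features lay within 0.25 of Ccr4, 459 of Cxcr6, 902 of Ccr9, 59 of Ccr2, 1136 of Cxcr3 and 417 of Cxcr4.

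Of the other chemokine receptors, 14 of a list of 15 were measured, and 0 passed in either direction. Only Ccr7, which brings T cells into lymph nodes, lay above background on every array, with 13.39 and 13.93 with spermidine and 13.28 and 13.78 in control. Its ranges overlapped and its difference was 0.13 (-0.12 when control replicate 1 was left out, -0.14 when spermidine replicate 2 was). The other 13 were below background on every array, among them those with the largest statistics, Cxcr2 (-0.59), Ccr3 (0.46), Ackr3 (-0.39) and Ackr4 (0.38), so these values are differences of background signals. The median difference of the list was 0.13, with 9 higher and 5 lower.

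The 14 ligands of the 8 receptors were all measured, with 9 higher and 5 lower, a median difference of 0.066 and 0 passing. After Ccl22, the largest statistics were those of Ccl1 (-0.52), Ccl17 (0.51) and Cxcl9 (-0.37), all below background. Leaving out 1 array brought these as near to 0 as -0.25 for Ccl1 and -0.097 for Cxcl9 (both without control replicate 2) and 0.22 for Ccl17 (without spermidine replicate 1).

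Of 31 genes of receptor signalling and desensitisation, 29 were measured, with 12 higher, 17 lower, a median difference of -0.11 and 0 passing. Rgs16, a regulator that speeds the switching off of G proteins, had 7.08 and 7.62 in the spermidine arrays, against 6.44 and 6.20 in the control arrays. Its difference was 1.03 ± 0.26 (SE, adjusted p = 0.637, limma), and 0.76 without spermidine replicate 2. Control replicate 2 lay below background and control replicate 1 little above it. Rgs2, of the same family, differed by 1.45 at signals below background. Grk5, a kinase that desensitises receptors, had 5.70 and 5.86 with spermidine and 6.57 and 6.38 in control, so it was above background in the control arrays only. Dock2, the exchange factor that activates Rac downstream of chemokine receptors, had 15.13 and 15.17 with spermidine and 14.64 and 14.73 in control, a difference of 0.47 ± 0.22 (SE, adjusted p = 0.732, limma). Without spermidine replicate 2 the difference of Rgs2 was 0.96. Gnai2, the main inhibitory G protein subunit of lymphocytes, stood at 16.10 and 15.86 with spermidine and 16.13 and 16.21 in control.

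Of 22 adhesion and egress genes, 20 were measured, with 12 higher, 8 lower, a median difference of 0.11 and 0 passing. Gcnt1, which builds the glycans that selectins bind, had 6.70 in both spermidine arrays, against 5.90 and 5.14 in the control arrays. Its difference was 1.18 ± 0.29 (SE, adjusted p = 0.637, limma), the control signals lay below background, and without control replicate 2 it was 0.81. Klf2, a transcription factor of quiescent T cells that drives egress receptors, had 9.73 and 9.88 with spermidine and 10.32 and 10.60 in control, a difference of -0.65 ± 0.23 (SE, adjusted p = 0.661, limma). Fut7, which makes selectin ligands, differed by -0.49 and the gut-homing receptor Gpr15 by 0.41. Gpr15 lay near background, at 6.73 and 6.82 with spermidine and 6.40 and 6.32 in control, with control replicate 2 below it. S1pr1, the egress receptor that Klf2 is known to drive, differed by -0.17 with overlapping groups, and by -0.34 when spermidine replicate 1 was left out and -0.0088 when spermidine replicate 2 was.

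Of 18 transcription factors of CD8 differentiation, 16 were measured, with 6 higher, 10 lower, a median difference of -0.046 and 0 passing. Prdm1, a factor of terminal effector cells, differed by -0.81 at signals below background (-0.41 without control replicate 2). Stat5b, which carries the IL-2 signal, had 10.01 and 10.05 with spermidine and 9.42 and 9.82 in control. Its difference was 0.41, and that of Id2 was -0.42, of Bach2 0.33; each moved by over 1.5 times when 1 array was left out, Id2 to -0.16 without spermidine replicate 2, Bach2 to 0.19 without control replicate 1 and Stat5b to 0.21 without control replicate 1. Over the 5 lists 8 of 93 measured genes had an unadjusted p under 0.05, against 7.02% of all features.

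**Figure D5:**
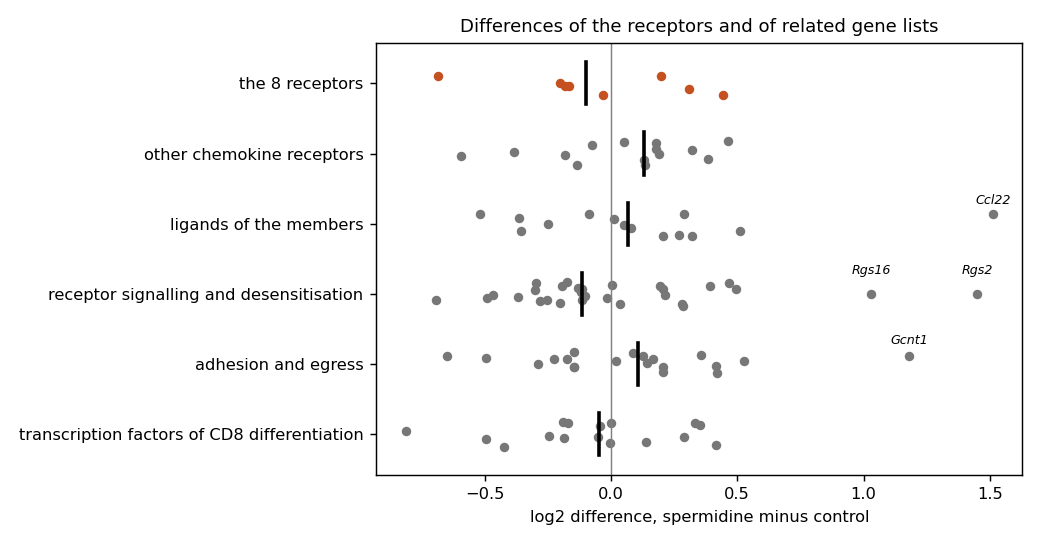
Log2 difference, spermidine minus control, of the 8 receptors and of the measured genes of each related list, 1 point per gene and a black bar for the median. The medians lie between -0.11 and 0.13, and Ccl22, Rgs2, Gcnt1 and Rgs16 stand farthest to the right.

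Markers of other cells were mostly at background, with exceptions among B cell, NK cell, CD4 T cell and monocyte markers. All 5 dendritic cell markers, all 4 measured granulocyte markers and all 3 measured platelet markers lay below it on every array, as did Ncr1 of NK cells, while Klrb1c had 7.05 and 6.69 with spermidine and 7.13 and 6.38 in control. Of the 7 measured B cell markers, Cd79a, Cd79b and Ebf1 lay above background on every array. Both spermidine arrays were higher for each, by 0.81, 0.35 and 0.52, as for 18.3% of all features. In the whole B cell list 6 were higher and 1 lower. Median differences were 0.35 for B cell, 0.19 for dendritic cell, 0.20 for granulocyte and 0.33 for platelet markers. Those of NK cell, CD4 T cell and monocyte and macrophage markers were 0.28, -0.062 and -0.35. Of all these genes 0 passed. The part of such cells in the receptor values was not tested.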

How the data were processed

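RNA of 4 cultures was labelled from 250 ng of total RNA and hybridised to Clariom S Mouse arrays. According to the submitters' processing notes, the authors made the deposited log2 values from the scans with RMA in Affymetrix Expression Console; versions are not given. RMA subtracts a modelled background, forces the arrays to 1 distribution and pools the probes of a feature, which shrinks differences of dim features. The log2 scale was inferred from the values (1.72 to 19.93 in gene features). Genome build and scan details are not given in the sources used here. Arrays have no sequencing depth, and their number limits precision.

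Of 28846 features, 6640 control features were left out and 22206 gene features were tested; 19572 had 1 symbol, 0 several and 2634 none in the platform annotation, updated by Entrez identifier. Groups and replicate numbers came from the sample titles. Spermidine was compared with control by limma 3.58.1 under R 4.3.3. Its lmFit and eBayes ran with a constant prior (prior degrees of freedom 5.96, residual 2), the test was two-sided, and p-values were adjusted by Benjamini-Hochberg over the 22206 features. The test was checked on data simulated from its own fitted prior with independent errors. Such data cannot show how it does where arrays deviate together. Lists are described by counts and medians only, with no test of a list. From each list the up to 4 genes with the largest statistics were named, with the ligands of each receptor and the nearest pattern per receptor; Gnai2, S1pr1, Tbx21, Bcl6, Ccr7, Cxcl10, the marker genes and the neighbours on chromosome 9 were named after their values were seen. The receptors and lists were chosen with earlier results of these data known. Alternatives were other variance priors, array weights, 3 normalizations, 2 filters, 1 feature per symbol, the mean of a symbol's features, the replicate block and leaving out each array.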

Additional observations from a re-analysis of the deposited data

How the results depend on the processing

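No receptor passed an adjusted p of 0.05 under any alternative run, and neither did any gene of the 5 related lists. With all 4 arrays, other variance priors, array weights, the filters, 1 feature per symbol and the replicate block left every fitted difference unchanged. So did the mean of a symbol's features, since each receptor had 1 feature. Only the 3 normalizations could change a sign. Cxcr3 (-0.031 as reported) was 0.032 after further quantile normalization and 0.021 after cyclic loess. The other receptors kept their sign under the normalizations. Leaving out 1 array gave -0.26 to 0.66 for Ccr2, -0.75 to 0.34 for Ccr8, -0.14 to 0.079 for Cxcr3, -0.36 to 0.025 for Cxcr4 and -0.39 to 0.031 for Cxcr5. A lone array is then assumed to vary like the other group, and the cause of these reversals was not tested. Of all features 0 were called as reported and 1, Hmox1, was called with an intensity trend, median centring, cyclic loess, either filter on dim features or the replicate block. At an unadjusted p under 0.05 there were 0 receptors as reported and 1, Ccr4, with the intensity trend, with cyclic loess and with the replicate block; leaving out 1 array gave 0 to 2. With the block, Ccr4 had an unadjusted p = 0.0120 and an adjusted p = 0.335. Same-numbered arrays deviated together (correlation 0.210 across all features and 0.379 across those above background), but with 2 pairs this is only a hint, and nothing in the labels ties the numbers. The non-overlap of Ccr4, Cxcr6 and Ccr9 was also found after median centring and cyclic loess. Ccr8 had no value under either filter and Cxcr5 none under the background filter, since they were removed. Dim signals limit Ccr8, Cxcr5 and most ligands.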
